A study of Rattus norvegicus with 6 samples.

Results

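The enzymes that carry glucose towards pyruvate were read in liver RNA, namely Gpi1, Pfkl, Tpi1, Gapdh, Pgk1, Pgam1, Eno1 and Pklr. They were taken by gene symbol, and these 8 genes are 8 of the 32930 rows of the deposited expression table and 8 of the 18455 genes tested. Each symbol stood on 1 row only. The comparison was between 3 livers of the HFD group, fed a high-fat diet with 0.5% CMC-Na (sodium carboxymethyl cellulose, the vehicle), and 3 livers of the HTG group, fed the same diet and treated with HTG. All 6 animals therefore shared the high-fat diet, and no group on ordinary chow is part of these 6 libraries. The intervention is given as 12 weeks. In the rat design of the paper the high-fat diet lasted 12 weeks and the gavage 8 of them, so the length of HTG treatment here was not settled. The rats of that design went without food for 12 h before their livers were taken. Whether the animals of these libraries were fasted was not settled either. HTG is the Huazhuo Tiaozhi granule, a mixture of herbs, and the treatment label of the HTG samples spells it HCG. The labels give neither age, strain nor genotype. The labels name rats, the methods for the RNA sequencing name C57BL/6 J mice, and the table lists mouse Ensembl genes, so symbols and positions are given as mouse genes and the species was not settled. Coordinates are those of the table, and no build is given with them because the one that the submitters' notes name is of the rat.

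Glycolysis turns glucose into pyruvate in the cytosol. The upper steps spend ATP to make triose phosphates, and the lower steps recover ATP and NADH. In hepatocytes the pathway runs after feeding and supplies carbon for fatty acid synthesis, whereas in fasting most of the same enzymes run backwards for gluconeogenesis. The steps of phosphofructokinase and pyruvate kinase run one way in the cell and carry much of the control. Pklr, the liver pyruvate kinase, is a textbook target of the glucose-sensing factor ChREBP, the product of Mlxipl, which binds a carbohydrate response element. The hypoxia factor HIF1 binds elements with an ACGTG core near many glycolysis genes, and the GC box GGGCGG is the site of Sp1-type factors.

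The promoter windows of Pklr, Pgam1 and Tpi1 are shown because they carry these elements and lie before genes whose values follow. They are the 250 bases before the start of the rat gene, from RefSeq on build GRCr8, on the gene's strand from 5′ to 3′, and they are rat sequence while the expression rows are mouse. Capitals mark the carbohydrate response element in Pklr (chr2:176841014-176841263, plus strand), ACGTG in Pgam1 (chr1:250672902-250673151, plus strand) and GGGCGG in Tpi1 (chr4:159305089-159305338, minus strand).
Pklr: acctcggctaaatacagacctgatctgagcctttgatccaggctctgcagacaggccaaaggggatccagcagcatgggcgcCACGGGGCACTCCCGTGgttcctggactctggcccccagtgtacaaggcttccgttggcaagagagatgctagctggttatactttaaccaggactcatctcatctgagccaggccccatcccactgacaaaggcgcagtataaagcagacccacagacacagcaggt
Pgam1: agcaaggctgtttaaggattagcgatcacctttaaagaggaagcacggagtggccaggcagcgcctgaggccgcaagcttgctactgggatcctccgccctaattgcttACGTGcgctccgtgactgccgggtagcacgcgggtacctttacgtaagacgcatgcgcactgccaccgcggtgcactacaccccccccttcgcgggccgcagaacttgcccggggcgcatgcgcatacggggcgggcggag
Tpi1: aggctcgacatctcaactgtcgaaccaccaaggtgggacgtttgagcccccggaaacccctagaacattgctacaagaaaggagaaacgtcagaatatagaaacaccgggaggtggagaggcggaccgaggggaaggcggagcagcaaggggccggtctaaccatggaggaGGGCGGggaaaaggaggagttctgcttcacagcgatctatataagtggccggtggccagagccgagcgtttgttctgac

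Of the 8 enzymes 7 had a window (Gpi1 under the rat symbol Gpi), and none was matched for Pgk1. The carbohydrate response element, searched on both strands, was in 20 of the 33469 rat windows (0.0598%), and among the enzymes it was in that of Pklr, from 168 to 152 bases before the start. ACGTG, on either strand, was in 16.6% of windows and in those of Gapdh and Pgam1. CACGTG, which contains ACGTG, was in 5.59% of windows and in 0 of the 7. GGGCGG was in 30.5% of windows and in 5 of the 7, those of Gpi1, Pfkl, Tpi1, Pgam1 and Eno1. A match describes letters in a window and is no evidence of binding.

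Each gene has 2 deposited values per library, an estimated count and FPKM, which is fragments scaled to transcript length and to the library total and allows levels of different genes to be compared. Counts summed to between 65353298 and 70910444 in the HFD libraries and between 50648778 and 90563477 in the HTG libraries. Low counts came in steps of about 4 (the value 4 occurred 6450 times, 3 occurred 2549 times and 5 occurred 1757 times), so the depth in fragments was nearer to 12662194 to 22640869 per library. A gene listed at 0 could still have an expected level of up to 12 counts, or 0.123 to 0.256 CPM depending on the library, counting error only. The lowest count of any of the 8 enzymes was 1359, in Pfkl. CPM are counts expressed against the TMM-normalised total of the library. Hepatocyte markers summed to between 111828 and 122963 CPM in HFD libraries and between 105924 and 116572 CPM in HTG libraries, so the defining genes of liver were present. Muscle markers, which would carry muscle forms of these enzymes, summed to at most 1.69 CPM in any library, with 3 of the 5 at 0 throughout.

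The HTG livers had less of the message for most of these enzymes. Tpi1, Pgk1, Pgam1 and Eno1 were lower by a log2 change of −1.04, −1.61, −1.04 and −1.21, and Gpi1 by −0.56. Of the 8 enzymes 5 were lower at an unadjusted p under 0.05 in edgeR's quasi-likelihood test, where 12.4% of all genes tested were, and 0 were higher, where 12.3% of all genes were. The median change of the 8 was −1.04 on the log2 scale, and that of all genes tested was 0.03. None of the 8 had an adjusted p under 0.05 after Benjamini-Hochberg adjustment over all genes, a threshold that 2 genes (0.0108%) reached in edgeR. DESeq2, on the same counts, put 4 of the 8 (Tpi1, Pgk1, Pgam1 and Eno1) under an adjusted p of 0.05, lower in HTG, where 7.55% of the genes it adjusted were. The labels say that 6 animals were used and nothing of litters or cages. With a single library from each animal, the spread between libraries holds differences between animals and those of preparation and sequencing, which cannot be told apart. In whole liver RNA, fewer cells of a type and less RNA per cell cannot be told apart. In the account of each gene, passing means an unadjusted p under 0.05 in edgeR, and the p printed is edgeR's, adjusted by Benjamini-Hochberg over all genes, unless DESeq2 is named.

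**Figure D1:**
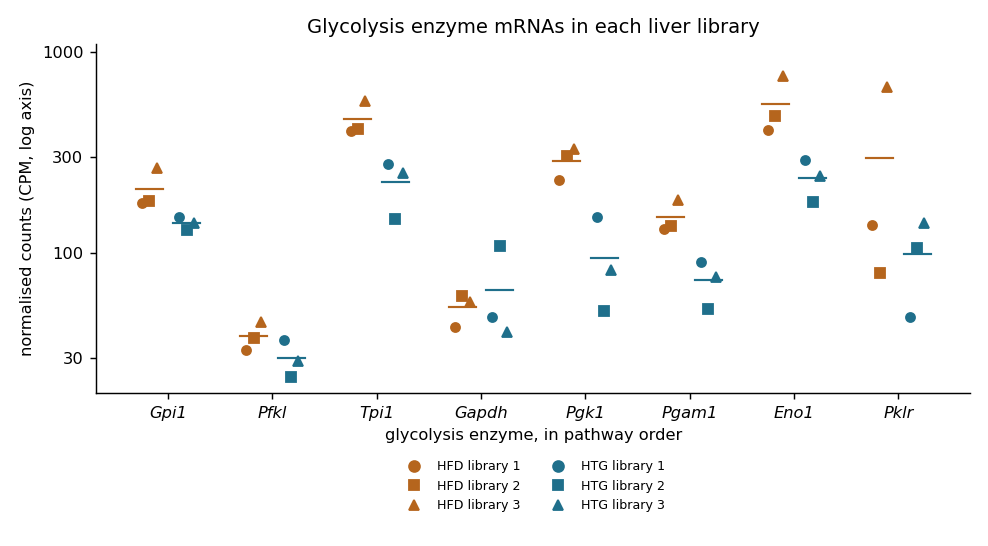
Normalised counts (CPM, log axis) of the 8 enzymes in pathway order in each of the 6 libraries, with HFD in brown, HTG in blue, symbols for library numbers and lines for group means. The HFD and HTG points lie apart for Gpi1, Tpi1, Pgk1, Pgam1 and Eno1 and are mixed for Pfkl, Gapdh and Pklr, where HFD library 3 stands at 669 CPM.

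Per transcript length, the enzymes differed widely in level. In HFD livers the mean FPKM was 163 ± 37.7 (SD, n = 3) for Tpi1, 124 ± 21.4 for Pgk1, 99.3 ± 35.9 for Eno1, 90.2 ± 100 for Pklr and 73.5 ± 16.3 for Pgam1. It was 31.1 ± 8.24 for Gpi1, 12.5 ± 1.80 for Gapdh and 5.60 ± 1.01 for Pfkl. The ranges of neighbours from Tpi1 down to Pgam1 overlapped across the HFD libraries. Within each HFD library, however, Tpi1 was above Pgk1 and Pgk1 above Eno1, as Gpi1 was above Gapdh and Gapdh above Pfkl. In HTG livers the order by mean FPKM was Tpi1 (75.6 ± 20.2), Eno1 (41.1 ± 8.50), Pgk1 (39.1 ± 20.8), Pgam1 (34.3 ± 7.87), Pklr (28.3 ± 12.7), Gpi1 (20.4 ± 1.44), Gapdh (15.3 ± 9.79) and Pfkl (4.18 ± 0.820). From Eno1 to Gapdh the HTG libraries overlapped from one neighbour to the next, while Tpi1 was above Eno1, and Gapdh above Pfkl, in all of them.

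Gpi1, glucose-6-phosphate isomerase, interconverts the hexose phosphates. The gene (ENSMUSG00000036427) is listed on chromosome 7 from 33900755 to 33929761 on the minus strand. Its level was 177, 181 and 264 CPM in the HFD libraries 1, 2 and 3, against 151, 130 and 140 CPM in the HTG libraries in the same order. Every HTG library was below every HFD library, and HFD library 3 stood well above the rest. The log2 fold change was −0.56 ± 0.22 (SE), which passed, and edgeR's adjusted p was 0.156. It did not pass with HFD library 3 left out, when the change was −0.36, nor with HTG library 2 (−0.51) or HTG library 3 (−0.56) left out.

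Pfkl, the liver subunit of phosphofructokinase, carries the committed step. The table places it (ENSMUSG00000020277) on chromosome 10 from 77822781 to 77845641 on the minus strand. HFD livers had 32.9, 37.7 and 45.5 CPM and HTG livers 36.7, 24.1 and 29.0 CPM. The groups overlapped through HTG library 1, which was above HFD library 1. The log2 fold change of Pfkl was −0.37 ± 0.21 (SE) and did not pass, with an adjusted p of 0.311 in edgeR. Leaving out HTG library 1 gave −0.59, which passed.

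Tpi1, triose phosphate isomerase, interconverts the triose phosphates. Its row (ENSMUSG00000023456) is on chromosome 6 from 124787549 to 124791259, minus strand, and its rat promoter window is the one shown with GGGCGG. Tpi1 was at 404, 413 and 571 CPM in HFD livers and at 278, 147 and 249 CPM in HTG livers. The HTG values lay wholly under the HFD values, and HTG library 2 was the lowest of the 6. The log2 fold change was −1.04 ± 0.28 (SE), which passed, and the adjusted p was 0.0816 in edgeR and 0.00447 in DESeq2.

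Pgk1, phosphoglycerate kinase, makes the first ATP of the lower steps. It is on the X chromosome from 105230706 to 105247305 on the plus strand (ENSMUSG00000062070). Counts were 230, 306 and 329 CPM in the HFD livers and 151, 51.1 and 81.7 CPM in the HTG livers. Group means were 288 ± 51.7 and 94.4 ± 50.9 CPM (SD, n = 3), so the HTG mean was 32.8% of the HFD mean. Of the 5 enzymes with groups apart, Pgk1 had the largest change, at −1.61 ± 0.38 (SE) on the log2 scale. It passed, and its adjusted p was 0.0627 in edgeR and 0.000431 in DESeq2.

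Pgam1, phosphoglycerate mutase, moves the phosphate group on the 3-carbon acid. It is listed on chromosome 19 from 41900362 to 41907099, plus strand (ENSMUSG00000011752), and the rat window is the one shown with ACGTG. The levels were 131, 136 and 184 CPM in HFD and 90.4, 52.7 and 76.1 CPM in HTG, without overlap. A log2 fold change of −1.04 ± 0.25 (SE) passed, and the adjusted p was 0.064 in edgeR and 0.00212 in DESeq2.

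Eno1, enolase, makes phosphoenolpyruvate. The gene (ENSMUSG00000063524) is on chromosome 4 from 150321178 to 150333336, plus strand. It had 408, 483 and 761 CPM in HFD livers and 291, 180 and 242 CPM in HTG livers. Again the groups did not overlap, with HFD library 3 highest and HTG library 2 lowest. The log2 fold change of Eno1 was −1.21 ± 0.30 (SE), which passed, and its adjusted p was 0.0659 in edgeR and 0.00119 in DESeq2.

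These 4 lower-pathway enzymes, Tpi1, Pgk1, Pgam1 and Eno1, ranked the libraries in the same order, namely HFD library 3, 2 and 1, then HTG library 1, 3 and 2. They were also the ones with an unadjusted p under 0.05 and a log2 fold change under −1, where 3.88% of all genes tested passed both thresholds. That count of 4 was 1 without HFD library 3, when Pgk1 alone stayed under −1, and 2 without HTG library 2, though each of the 4 kept its direction and an unadjusted p under 0.05 in all 17 alternatives of the fit. With Gpi1, 5 of the 8 had groups that did not overlap and were lower in HTG, where 15.5% of all genes tested were. The 8 enzymes together took 0.163, 0.160 and 0.296% of all counts in the libraries of the HFD group (1, 2, 3), against 0.108, 0.0862 and 0.0924% of the HTG group. HFD library 3 was the highest of the 6 for 7 enzymes, and HTG library 2 was the lowest for 6.

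**Figure D2:**
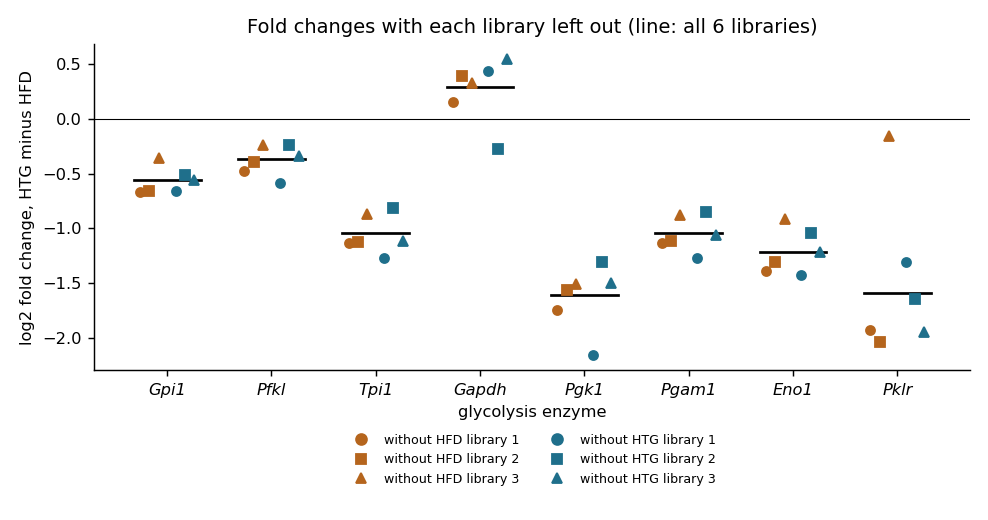
Log2 fold change (HTG minus HFD) of each enzyme with each library left out in turn (symbols) and with all 6 libraries (black lines). Pklr moves to −0.15 without HFD library 3 and Gapdh to −0.28 without HTG library 2, while Tpi1, Pgk1, Pgam1 and Eno1 stay between −2.16 and −0.81.

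Gapdh, glyceraldehyde-3-phosphate dehydrogenase, stands between Tpi1 and Pgk1 in the pathway and is a common reference gene. It lies on chromosome 6 from 125138678 to 125142736, minus strand (ENSMUSG00000057666), 347 kb from Tpi1. Its values were 42.8, 61.2 and 56.8 CPM in the HFD livers and 48.0, 108 and 40.3 CPM in the HTG livers. HTG library 2 was the highest of all and HTG library 3 the lowest, so the HTG values enclosed the HFD values. Its log2 fold change was 0.29 ± 0.36 (SE), with an edgeR adjusted p of 0.656. Without HTG library 2 it turned to −0.28, and neither value passed.

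Gapdh was listed low for its step. Per length, Tpi1 was between 2.04 and 15.1 times Gapdh in the 6 libraries. The table also holds processed pseudogenes, copies of the message inserted in the genome, whose sequence is close to that of the gene. Gapdh-ps15 on chromosome Y had counts of 1899, 1544 and 2820 in HFD and of 2011, 2043 and 1310 in HTG. Gapdh-ps16 on chromosome 8 had 1444, 1203 and 2201 counts in HFD and 1555, 1600 and 1050 in HTG. The ratio of Gapdh-ps16 to Gapdh-ps15 was between 0.760 and 0.802 in every library, and the FPKM of Gapdh-ps15 was between 20.9 and 38.9, above that of Gapdh (8.48 to 26.5) in all libraries but HTG library 2. Pseudogene rows held 43.1% of the counts summed over Gapdh and its named copies, from 25.6% in HTG library 2 to 55.5% in HTG library 3. How reads were shared between these rows was not tested, and the level listed for Gapdh is uncertain to that extent. With the copies summed into it, an alternative chosen after seeing the data, Gapdh had a log2 fold change of 0.04 ± 0.24 (SE) and an edgeR adjusted p of 0.94.

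**Figure D3:**
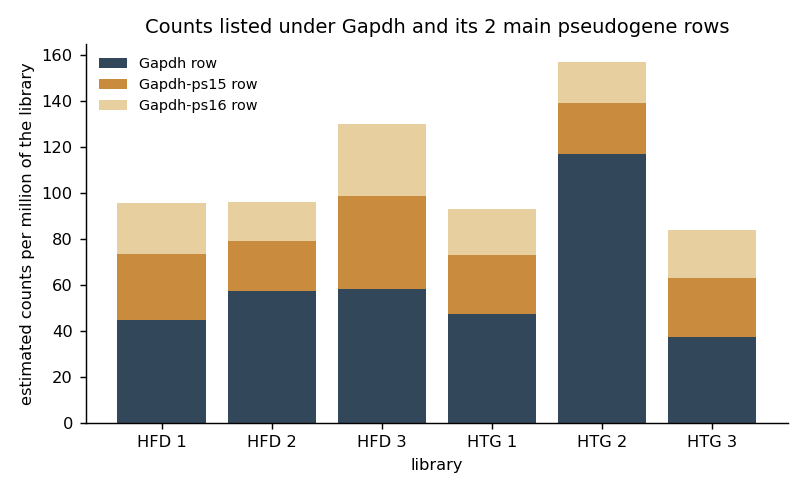
Estimated counts, relative to the library total, on the Gapdh row and on the rows of the processed pseudogenes Gapdh-ps15 and Gapdh-ps16, stacked for each library from 0. The pseudogene share is smallest in HTG library 2 and largest in HTG library 3.

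For the other enzymes the named copies held little of the sum, namely 4.42% for Pgam1, 3.86% for Eno1, 1.97% for Pgk1, 0.303% for Gpi1 and 0.217% for Tpi1, and none was listed for Pfkl or Pklr. The larger of these copy rows were lower in HTG too. Their log2 fold changes were −1.90 for Pgk1-rs7, −1.44 for Pgam1-ps2 and −1.78 for Eno1b, beside −1.61, −1.04 and −1.21 for the parent rows. Eno1b is listed as protein-coding, whereas the other named copies are listed as processed pseudogenes.

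As a ratio within each library, which needs no scaling between libraries, Tpi1, Pgk1, Pgam1 and Eno1 were each lower relative to Gapdh in every HTG library than in any HFD library. The differences in mean log2 ratio, HTG minus HFD, were −1.24 for Tpi1, −1.90 for Pgk1, −1.22 for Pgam1 and −1.35 for Eno1. Each had a two-sided exact permutation p of 0.1, the smallest that 3 against 3 allows, and 0.175 after adjustment over the 7 ratios computed. The ratio differences of Gpi1 (−0.70, exact p = 0.3), Pfkl (−0.54, exact p = 0.5) and Pklr (−1.28, exact p = 0.3) came with overlapping groups, and HTG library 2, where Gapdh was highest, had the lowest ratio of all 6 for each of the 7 enzymes. Without HTG library 2 the differences were −0.53 for Tpi1, −1.09 for Pgk1, −0.57 for Pgam1 and −0.73 for Eno1, so their size rested in large part on that library. Gpi1 was then at −0.22, Pfkl at 0.04 and Pklr at −0.97. With the Gapdh copies counted in, the differences of Tpi1, Pgk1, Pgam1 and Eno1 were −1.09, −1.75, −1.08 and −1.21 with all 6 libraries, and Gpi1 was at −0.56 with the groups apart (exact p = 0.1).

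Pklr, liver pyruvate kinase, makes pyruvate and the last ATP. Its row (ENSMUSG00000041237) is on chromosome 3 from 89043449 to 89053901, plus strand. It had 138, 79.6 and 669 CPM in HFD livers and 48.2, 106 and 141 CPM in HTG livers. HFD library 3 was 4.83 times HFD library 1, 8.41 times HFD library 2 and 4.75 times the highest HTG library, and the other 5 libraries were mixed between groups. The log2 fold change of −1.59 ± 0.75 (SE) did not pass, with an adjusted p of 0.235 in edgeR and 0.294 in DESeq2. Without HFD library 3 it was −0.15, so its size rested on that library. Leaving out HFD library 1 or HFD library 2 instead gave −1.93 or −2.04, and both passed.

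Mlxipl, Srebf1 and Slc2a2 were read beside Pklr, and no difference between their changes and that of Pklr was tested. Mlxipl, which encodes ChREBP, had 325, 287 and 461 CPM in HFD livers and 604, 1075 and 939 CPM in HTG livers. Every HTG library was above every HFD library, with a log2 fold change of 1.29 ± 0.29 (SE), which passed, and an edgeR adjusted p of 0.0613. Srebf1, whose product drives fatty acid synthesis genes under insulin, overlapped between groups, with 155, 87.3 and 393 CPM in HFD and 244, 597 and 261 CPM in HTG (log2 fold change 0.79, edgeR adjusted p = 0.417), and it passed only without HFD library 3. Slc2a2, the liver glucose transporter, was lower at −0.96 (edgeR adjusted p = 0.169), a difference that did not pass with HFD library 1 (−1.01), HFD library 3 (−0.59), HTG library 1 (−0.84) or HTG library 3 (−0.80) left out. HFD library 3 was the highest HFD library for Pklr, Mlxipl, Srebf1 and Slc2a2.

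**Figure D4:**
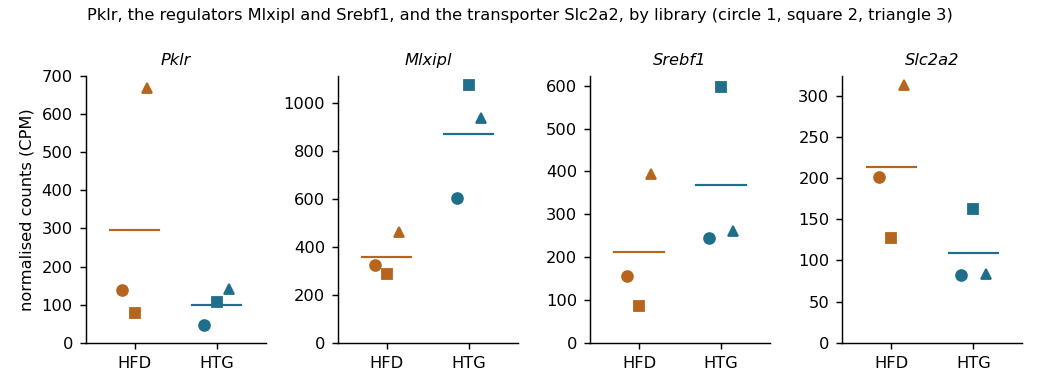
Normalised counts (CPM, linear axes from 0, a separate scale per gene) of Pklr, Mlxipl, Srebf1 and Slc2a2 in each library, with symbols for library numbers and lines for group means. For Mlxipl all HTG points lie above the HFD points, while for Pklr only HFD library 3 stands away from the others.

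Across the rest of the pathway, 19 of 20 further enzyme genes were in the table and tested, and Pgk2 was not analysed here. Of these 19, 7 were lower and 2 higher in HTG at an unadjusted p under 0.05, 10 did not pass, and the median log2 fold change was −0.53. Of all genes tested 12.4% were lower and 12.3% higher, so the 2 higher are no more than that share of 19 genes. Pkm, the pyruvate kinase of other tissues, was lower at −1.40 (edgeR adjusted p = 0.0612), and so were Pfkm, the muscle phosphofructokinase (−0.64, adjusted p = 0.0674), and Eno2, the neuronal enolase (−2.38, adjusted p = 0.0665), whose level was at most 3.94 CPM. The other 4 lower genes were Hk2, Aldoa, Bpgm and Galm, with log2 changes between −0.70 and −0.47. Higher were Eno3, the muscle enolase (0.64, edgeR adjusted p = 0.2), and Adpgk, a sugar kinase that uses ADP (0.46, adjusted p = 0.145). Pkm, Pfkm and Eno2 passed with any 1 library left out, and each of Hk2, Aldoa, Bpgm, Galm, Eno3 and Adpgk did not pass without 1 or more of the libraries. Ldha, which turns pyruvate to lactate, overlapped between groups (−0.79, edgeR adjusted p = 0.313) and passed without HTG library 1 (−1.25). The count of 7 lower was 3 without HTG library 2 and 4 without HFD library 3, and the 2 higher were 0 when HFD library 1 or 3, or HTG library 1 or 2, was left out.

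**Figure D5:**
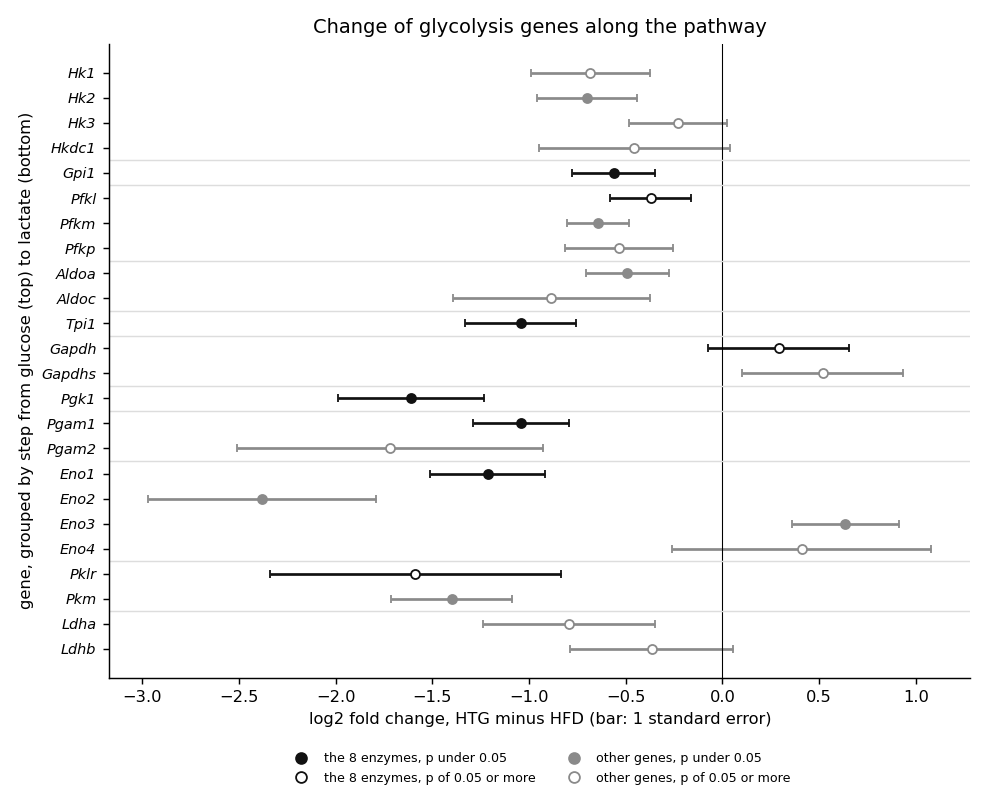
Log2 fold change (HTG minus HFD, bars 1 standard error) of glycolysis genes grouped by step in pathway order. The 8 enzymes are in black and others in grey, with filled points at an unadjusted p under 0.05. Adpgk, Bpgm and Galm are not drawn. Points lie below 0 from Hk1 to Ldhb except for Gapdh, Gapdhs, Eno3 and Eno4.

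Where several genes encode a step, the share of the summed FPKM was compared. Eno1 made up 94.4, 92.8 and 97.1% of enolase in HFD and 87.2, 80.2 and 88.9% in HTG. That was a mean of 94.8 ± 2.21% against 85.4 ± 4.60% (SD, n = 3; exact permutation p = 0.1, and 0.267 adjusted over 8 steps). The share of Eno3 was 4.56% in HFD and 14.1% in HTG. These shares are of the sum over 4 genes, Eno1, Eno2, Eno3 and Eno4. Eno1b, listed as protein-coding, was left out, with FPKM of 7.14, 11.16 and 19.69 in HFD and 4.46, 2.85 and 3.31 in HTG. Counting it would lower the Eno1 share more in HFD than in HTG. Shares with it were not computed, so the separation of the groups holds for those 4 genes only. Pfkl made up 51.3 ± 5.08% of phosphofructokinase in HFD and 55.7 ± 5.52% in HTG (exact p = 0.5). Pklr made up 81.3, 61.9 and 91.5% of pyruvate kinase in HFD and 65.6, 88.3 and 90.4% in HTG (exact p = 0.7), with overlapping groups. Pgam1 (99.2% and 99.5%) held nearly all of its step in both groups.

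Among 20 genes that control glycolysis, 3 were lower, 2 were higher and 15 did not pass at an unadjusted p under 0.05, with a median log2 change of −0.11. Those counts are near what the shares of all genes tested (12.4% lower and 12.3% higher) would give for 20 genes, so they are no result about the control genes as a group. Hif1a, the oxygen-regulated subunit of HIF1, was lower at −0.87 ± 0.22 (SE, edgeR adjusted p = 0.0704), with 22.3, 36.5 and 36.5 CPM in HFD and 19.6, 15.7 and 16.8 CPM in HTG. Prkaca, a catalytic subunit of protein kinase A, was lower at −0.41 (edgeR adjusted p = 0.191), beside Slc2a2. Pfkfb4, a kinase that makes the activator of phosphofructokinase, was higher at 0.65 (edgeR adjusted p = 0.158), beside Mlxipl. Hif1a and Mlxipl passed in all 17 alternatives, whereas Prkaca passed with HTG library 1 left out but with no other library left out, and Pfkfb4 did not pass without HFD library 1, HFD library 2 or HTG library 3.

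Of 4 genes tested for steps particular to gluconeogenesis, Fbp1 passed in all 17 alternatives, G6pc and Pcx passed with all 6 libraries, and Pck1 did not pass. The 3 that passed were lower, where 12.4% of all genes tested were. That count was not tested against the share and is no result about these genes as a group. G6pc1 was not analysed here under that symbol. Fbp1, fructose-1,6-bisphosphatase, which opposes phosphofructokinase, had 798, 1227 and 1027 CPM in HFD and 564, 159 and 284 CPM in HTG (−1.60, edgeR adjusted p = 0.0816). G6pc, glucose-6-phosphatase, differed by −1.84 (edgeR adjusted p = 0.162) and Pcx, pyruvate carboxylase, by −0.58 (adjusted p = 0.165), and neither passed with library 2 or 3 of either group left out. Pck1, phosphoenolpyruvate carboxykinase, did not pass (−0.67, edgeR adjusted p = 0.345), except without HFD library 3.

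Other messages moved between the groups as well. Among 12 genes in common use as references, Gusb (−1.13), Rplp0 (−0.81) and Eef1a1 (−0.85) were lower and Actb (0.55) was higher at an unadjusted p under 0.05, so a ratio to a reference gene differed with the gene used. Of these Gusb passed with any library left out. Of all genes tested 12.4% were lower and 12.3% higher at that threshold. The counts in these short lists, and in the marker lists that follow, were not tested against those shares and are no result about the lists. Of 11 hepatocyte markers tested, Cps1 and Ass1 were lower and Apoa1 and Apoa2 higher. Of 9 leukocyte markers, Adgre1 and Lyz2 were lower, and the 9 summed to 672 to 973 CPM in HFD and 451 to 782 CPM in HTG. Of 6 red cell markers, Alas2 was lower, and the 6 summed to 234 to 423 CPM in HFD and 258 to 485 CPM in HTG. The 6 endothelial markers had 0 genes past the threshold, while the 7 stellate and 5 cholangiocyte markers each had 1 lower and 1 higher. The part of these cells in the enzymes' differences was not tested.

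A profile over the 6 libraries was formed as the mean of the standardised log2 CPM of all 8 enzymes. Of 1155 genes outside the lists with a mean of at least 100 CPM, those most like this profile were Trap1 (r = 0.993), Cyb5b (0.988), Fads2 (0.984), Iqgap2 (0.980) and Uqcrc2 (0.979). These r describe profiles that share the split between the groups and the depth of the same libraries. Fads2, a desaturase of fatty acids, had 392, 609 and 1318 CPM in HFD and 313, 212 and 283 CPM in HTG. HFD library 3 was highest and HTG library 2 lowest, as for Tpi1, Pgk1, Pgam1 and Eno1.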

How the data were processed

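Liver libraries of 3 HFD and 3 HTG animals were grouped by their titles and treatment labels. Per gene, the authors deposited an estimated count as a whole number and an FPKM value scaled by transcript length and library size. The submitters' processing notes name HISAT2, StringTie, SAMtools and the rat build mRatBN7.2, without versions of the tools, while the rows carry mouse identifiers. Strand use in counting is not given in the sources used here, so overlapping and near-identical genes are uncertain. All columns of values were mapped to these 6 libraries.

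The main test was edgeR 4.0.16 (glmQLFit, TMM, filterByExpr, group as the only term) in R 4.3.3, fitted to all genes with Benjamini-Hochberg adjustment. DESeq2 1.42.0 and limma 3.58.1 on log2(FPKM + 0.1), kept to genes averaging 1 FPKM or more, were alternatives. Ratios and shares were tested by exact two-sided permutation, whose smallest p is 0.1 for 3 against 3. The genes named are the 8 enzymes and the fixed lists of other enzymes, control genes, gluconeogenesis, reference genes and markers, plus the 5 genes most like the mean profile of the 8 enzymes. Members and lists were chosen with earlier results of these data known. Scripts were tested on simulated counts. Some genes of the lists are not reported here. Other measurements of the study were not analysed here.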

Additional observations from a re-analysis of the deposited data

How the results depend on the processing

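Over 17 alternatives the counts of enzymes lower at an unadjusted p under 0.05 were 4 to 6 beside 5. The number with an adjusted p under 0.05, 0 in edgeR, was 4 in DESeq2, 4 in limma on FPKM, 2 with counts divided by 4 and 1 with at least 10 counts in every library. Those settings called 13.8%, 8.03%, 5.52% and 4.43% of all genes adjusted, in either direction, beside 0.0108%. With a library left out it was 0 to 1, the 1 being without HTG library 1, which called 3.38% of all genes. With a library left out, 1 to 5 enzymes passed both p and a log2 fold change of −1 (4 with all), the median change ranged from −1.27 to −0.61, 3 to 8 other glycolysis enzymes were lower (7 with all) and 0 to 2 higher (2 with all). The higher count was 1 with DESeq2's size factors, DESeq2, the length trend removed and limma. The log2 change of Gapdh ranged from −0.28 to 0.55 with a library left out, and the reversal was without HTG library 2. The cause was not tested.

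Library numbers are shared between the groups. Same-numbered libraries deviated with r of −0.08, −0.07 and 0.10, and libraries of different numbers with r from −0.12 to 0.18. No shared deviation by number was seen, but 3 libraries a group cannot decide whether the numbers pair the animals. With a replicate block 4 enzymes were lower in place of 5, Gpi1 no longer passing. Depth did not limit the 8 enzymes, whose counts were far above 12, and 3 libraries a group limit every comparison.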
